A study of Mus musculus with 10 samples.

Results

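Effector genes of myeloid suppressor cells were examined in hematopoietic progenitor cells of mouse bone marrow. The set holds 9 names, Arg1, Nos2, Il10, Tgfb1, Stat3, Il4ra, Cd274, Ptgs2 and Cd33, chosen by symbol. Of these, 5 are listed among the 12791 gene names of the authors' deposited table, namely Tgfb1, Stat3, Il4ra, Cd274 and Cd33. The other 4, Arg1, Nos2, Il10 and Ptgs2, are not listed there, either by symbol or by a RefSeq synonym. Of 21900 RefSeq protein-coding symbols 49.1% are listed under the current symbol. An absent name, here and below, is therefore not read as a result about that gene.

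The labels describe 10 libraries of RNA from lineage-negative, c-Kit-positive, Sca-1-negative bone marrow cells of C57BL/6 mice. They fall into 3 naive libraries from mice without a tumor, and 4 KDR-negative and 3 KDR-positive libraries from mice at week 4 of GL261, a transplantable mouse glioma line. KDR is a VEGF receptor, and its expression was followed by a GFP gene knocked into its locus, and the design text gives about 20000 cells per RNA sample and names only GFP-positive cells, without saying how the KDR-negative cells were gated. Whether the naive mice carried the knock-in allele, the age of the mice, and whether libraries of a group came from separate animals are not stated in the labels, so the p-values speak for the spread between these libraries, which may be technical.

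Myeloid-derived suppressor cells are immature monocytic and granulocytic cells that expand in tumor-bearing hosts and restrain T cells. They do so by consuming arginine (arginase 1), by releasing nitric oxide (the inducible synthase encoded by Nos2), prostaglandins (cyclooxygenase 2, encoded by Ptgs2) and the cytokines IL-10 and TGF-beta, and by displaying the checkpoint ligand PD-L1, encoded by Cd274. STAT3 carries signals of cytokines such as IL-6 and G-CSF that drive their expansion, the IL-4 receptor alpha chain encoded by Il4ra favors arginase expression, and CD33 is a sialic acid-binding receptor used as a myeloid marker.

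The authors' deposited table gives 2 comparisons of groups, and each gene has its log2 fold change, its mean in log2 CPM, and p-values before and after adjustment. It holds no value per library, which leaves library depth unknown and the values below without a standard deviation. The header names no groups. The comparisons are therefore called first and second, and positive fold changes mean a higher level in what is called the numerator group, relative to the denominator group. Group levels were derived here from the mean and the fold change, and on them the denominator groups of both comparisons matched, with a median absolute difference of 0.0020 log2 over 9044 genes, so they are treated as 1 group. The header does not say which numerator is a tumor group or the KDR-positive group. Neither the library numbers of the groups nor the derived levels were used to assign them. No value below is therefore assigned to tumor-bearing mice.

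Values summed over genes differed between groups of the first comparison. The derived levels added up to 2127125 CPM in the first numerator group and 756537 CPM in the denominator group, a log2 ratio of 1.49, although CPM values of a library cannot sum to more than 1000000, while the median log2 fold change of all genes in the authors' deposited table was -0.13. The unit is therefore given by the name in the header, and the values are on a scale that the sources used here do not explain. In the second comparison the sums had a log2 ratio of -0.04. A gene whose log2 fold change in the first comparison lies under 1.49 would therefore lie below 0 if both groups were brought to equal totals. The median of all genes, at -0.13, would lie below 0 as well, so a negative value at equal totals does not set a gene apart. The 59 genes that were among the 50 highest of either group made up 45.5% of the first numerator sum and 30.8% of the denominator sum, and without them the log2 ratio was 1.15.

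Tgfb1, which encodes the cytokine TGF-beta 1, was the 1 listed gene of the set that passed the threshold, an adjusted p under 0.05. Its derived level was 80.7 CPM in the denominator group and 245 CPM in the first numerator group. In the authors' deposited table its log2 fold change in the first comparison was 1.60, or 3.03-fold, with an adjusted p of 7.9e-07. At equal totals that difference shrank to 0.11, and to 0.45 when the genes of the highest levels were left out of the totals. In the second comparison Tgfb1 stood at a derived 79.7 CPM in the denominator group and 85.1 CPM in the numerator group. The authors' deposited table gives it a log2 fold change of 0.10 there, with an adjusted p of 1.

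Most genes at the level of Tgfb1 were higher in the first numerator group as well. Among 1008 genes whose derived denominator level lay from 6 to 7 log2 CPM, 66.2% were called higher, against 18.8% of all genes, and their median log2 fold change in the authors' deposited table was 1.01. Tgfb1 lay 0.59 above that median, and 18.5% of the genes in the band had a larger fold change. By p-value Tgfb1 ranked 971 in the authors' deposited table.

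**Figure D1:**
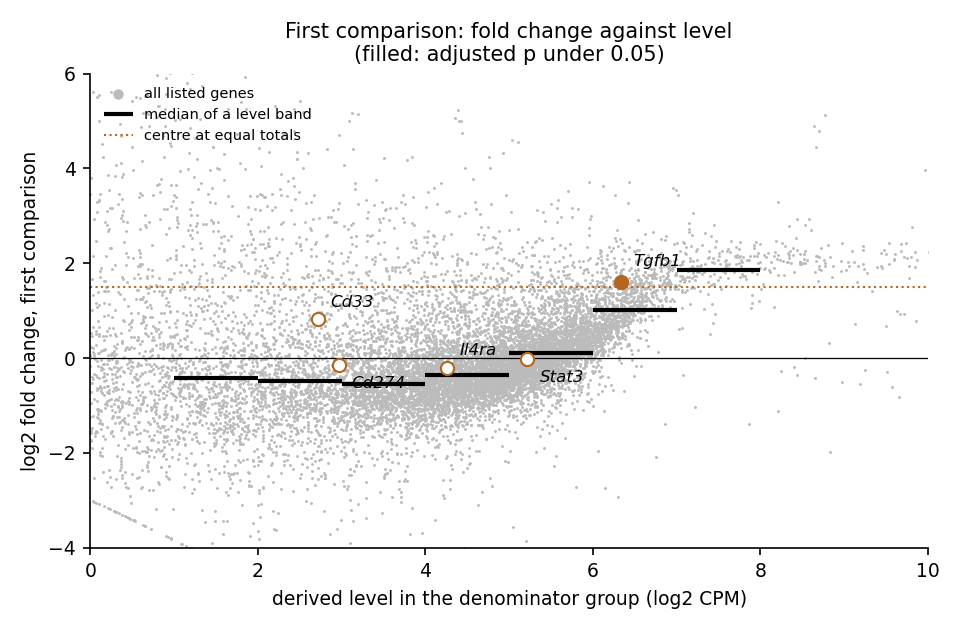
Log2 fold change in the first comparison (vertical axis) against the derived level in the denominator group (horizontal axis, log2 CPM), with each listed gene as a grey point, band medians as black bars and the 5 suppressor genes as circles, filled where the adjusted p is under 0.05. Tgfb1 sits where the band median has climbed to 1.01, above the dotted line of equal totals at 1.49; 702 genes lie outside the axes.

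Stat3, the transcription factor of IL-6 family and G-CSF signals, stood at similar levels in the groups. Its derived levels were 37.1 CPM in the denominator group, 36.8 CPM in the first numerator group and 38.0 CPM in the second. In the authors' deposited table its log2 fold changes were -0.01 and 0.04, with adjusted p-values of 1 in both comparisons. In the first comparison, 1375 genes of that table had a mean within 0.25 log2 CPM of Stat3, and the smallest absolute log2 fold change called among them was 0.75. No gene with a smaller change was called at this level. At equal totals Stat3 would stand at -1.50 in the first comparison. Against the median of its level band Stat3 stood at -0.12, and 59.2% of the genes in the band had a larger fold change.

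Il4ra, the chain shared by the receptors of IL-4 and IL-13, did not pass in either comparison. Its derived level was 19.1 CPM in the denominator group, 16.6 CPM in the first numerator group and 18.6 CPM in the second. In the authors' deposited table its log2 fold change was -0.20 in the first comparison, with an adjusted p of 0.875, and -0.04 in the other, with an adjusted p of 1. The smallest absolute log2 fold change called among 1336 genes with a mean near that of Il4ra was 0.99 in the first comparison. At equal totals Il4ra would stand at -1.69 there. Against the median of its level band it stood at 0.16, and 38.4% of the genes in the band had a larger fold change.

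Cd274, which encodes PD-L1, stood at a derived 7.83 CPM in the denominator group, 7.03 CPM in the first numerator group and 7.10 CPM in the second. Its log2 fold changes in the authors' deposited table were -0.15 and -0.14, with adjusted p-values of 1 in both comparisons. At this lower level the smallest absolute log2 fold change called among 769 genes was 1.66 in the first comparison, and no gene with a smaller change was called. At equal totals Cd274 would stand at -1.65 in the first comparison. Against the median of its level band it stood at 0.34, and 37.6% of the genes in the band had a larger fold change. Cd274 overlaps Plgrkt, a gene not listed in the table, in the RefSeq annotation of GRCm38, and the use of strand in counting was not given in the sources used here.

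Cd33, the Siglec used as a myeloid marker, had the widest spread between groups among the genes of the set that did not pass. Its derived level was 6.55 CPM in the denominator group, 11.6 CPM in the first numerator group and 4.14 CPM in the second. The authors' deposited table gives log2 fold changes of 0.82, with an adjusted p of 0.399, for the first comparison and of -0.65, with an adjusted p of 1, for the second. Among 920 genes with a mean near that of Cd33 the smallest absolute log2 fold change called in the first comparison was 1.46, which exceeds the value of Cd33. At equal totals Cd33 would stand at -0.67 in the first comparison. Against the median of its level band it stood at 1.31, and 18.3% of the genes in the band had a larger fold change. That share was 18.5% for Tgfb1 in its own band.

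**Figure D2:**
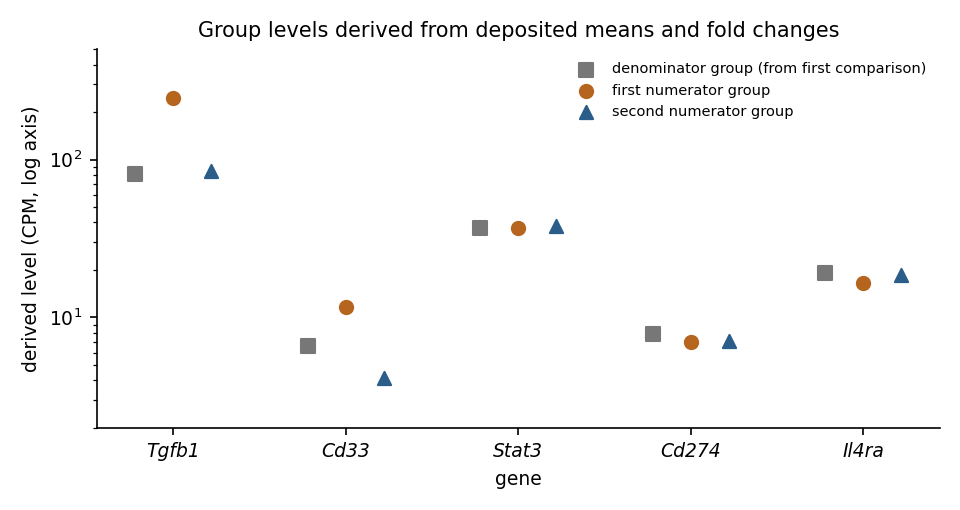
Derived level in CPM (vertical log axis) of the 5 listed genes in the denominator group (squares), the first numerator group (circles) and the second numerator group (triangles), each symbol a group value without an error, since no library values are held. Tgfb1 at 245 CPM in the first numerator group stands apart from 80.7 and 85.1 CPM in the other groups, while the symbols of Stat3 lie between 36.8 and 38.0 CPM.

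Over the 5 listed genes, 1 was called higher and none lower in the first comparison, where 22.3% of all genes were called, 18.8% higher and 3.49% lower. A count of 1 in 5 is close to that background. The median log2 fold change of the 5 genes in the authors' deposited table was -0.01, against -0.13 for all genes. In the second comparison none of the 5 was called, none had an unadjusted p under 0.05, and the smallest p was 0.383, beside 0.109% of all genes called (14 genes) and 0.336% with an unadjusted p under 0.05. These p-values come from a program not given in the sources used here.

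Both comparisons are taken to share their denominator group, so their values are only set side by side. Between the numerator groups the derived log2 ratio, first over second, was 1.51 for Tgfb1, 1.47 for Cd33, -0.01 for Cd274, -0.05 for Stat3 and -0.16 for Il4ra, with no test of these ratios. The ratios also carry the unequal totals of the groups. At equal totals the first and second values lay close together for Tgfb1 (0.11 and 0.14) and Cd33 (-0.67 and -0.61). They lay apart for Cd274 (-1.65 and -0.10), Stat3 (-1.50 and 0.08) and Il4ra (-1.69 and -0.0004).

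**Figure D3:**
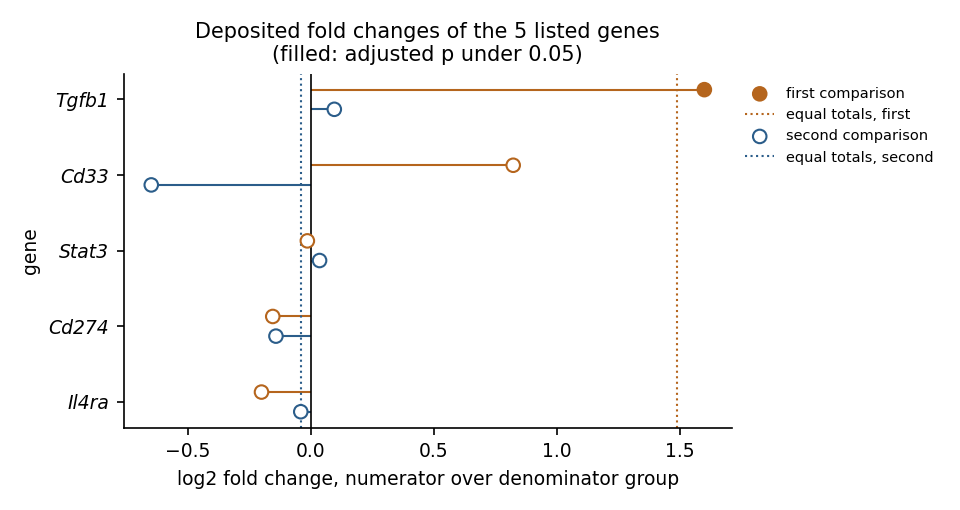
Deposited log2 fold change (horizontal axis) of the 5 listed genes (rows) in the first comparison (brown) and the second (blue), filled where the adjusted p is under 0.05, with dotted lines where 0 would lie at equal totals. Tgfb1 at 1.60 is the filled point, just right of the brown line at 1.49, and the other 4 genes lie left of it.

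The effector enzymes of the arginine pathway are not listed, while several of their neighbors are. Beside Arg1 and Nos2, the second arginase gene Arg2 and the other nitric oxide synthase genes Nos1 and Nos3 are not listed either. Of 15 names in the list of arginine and nitric oxide metabolism 8 were listed, and 2 were called higher and none lower in the first comparison, which is 25% beside the 18.8% of all genes called higher. Odc1, ornithine decarboxylase, which makes putrescine from the product of arginase, had the value 1.95 as its log2 fold change in the authors' deposited table. Ass1, which starts the rebuilding of arginine from citrulline, had 1.17 there, and at equal totals stood below 0, at -0.32. Not called in the authors' deposited table were Slc7a2, an arginine transporter, at 2.25 (adjusted p = 0.208), and Ddah2, which degrades an inhibitor of nitric oxide synthases, at -0.91 (adjusted p = 0.103).

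Of the IL-10 pathway the ligand is not listed, whereas both receptor chains were higher in the first numerator group. The derived level of Il10ra was 15.1 CPM in the denominator group, 40.4 CPM in the first numerator group and 11.3 CPM in the second. That of Il10rb was 39.4, 106 and 38.4 CPM. In the authors' deposited table their log2 fold changes in the first comparison were 1.42, with an adjusted p of 0.0049, and 1.43, with an adjusted p of 0.00014, and both fell below 0 at equal totals, to -0.08 and -0.07. Maf, a transcription factor of Il10 and of macrophages, was higher by 5.13 and Nfil3, a basic leucine zipper factor, was lower, at -1.56, in the authors' deposited table. In all, 3 of 9 listed genes (33.3%, beside 18.8% of all genes) were higher and 1 lower, and 1 of the 3 stayed above 0 at equal totals.

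In the TGF-beta list 3 of 20 listed genes were higher, Tgfb1 included, which is 15.0% and below the 18.8% of all genes. None was lower, and 2 of the 3 stayed above 0 at equal totals. Among ligands, Tgfb2 and Tgfb3 are not listed. Tgfbr2, the type II receptor that binds the ligand, had a derived level of 16.1 CPM in the denominator group, 49.5 CPM in the first numerator group and 13.5 CPM in the second. Its log2 fold change in the first comparison was 1.62 in the authors' deposited table (adjusted p = 0.0017), which is 0.13 at equal totals. Tgfbr1, the type I receptor kinase, stood at -0.05 (adjusted p = 1) in the authors' deposited table. By the authors' deposited table Tgfbi, a matrix protein induced by TGF-beta, had 1.02 with an adjusted p of 0.017, which is -0.47 at equal totals. Lrrc32 and Ltbp1, which hold latent TGF-beta at the cell surface and in the matrix, had 3.53 and 2.28 in the authors' deposited table but did not pass, with adjusted p-values of 0.066 and 0.088. The median of the list was 0.25 in the first comparison.

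The STAT3 axis, which covers receptors, Janus kinases, inhibitors, other STATs and targets, had 6 of 26 listed genes higher, or 23.1% beside 18.8% of all genes, and none lower. At equal totals none of the 6 stayed above 0. The survival factor gene Mcl1 was higher by 1.01, and the phosphatase genes Ptpn6 and Ptpn11 by 1.01 and 0.80, in the authors' deposited table. The kinase genes upstream of STAT3 were not called, with log2 fold changes of 0.13 for Jak1, -0.36 for Jak2 and -0.02 for Tyk2 in the authors' deposited table. By the authors' deposited table Socs3, a feedback inhibitor that STAT3 induces, had 0.78 (adjusted p = 0.608). The list had a median of 0.31.

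Genes linked to the IL-4 receptor were higher for 4 of 15 listed names (26.7%, beside 18.8% of all genes) and lower for none, and all 4 stayed above 0 at equal totals. The partner chain Il13ra1 was higher by 3.37 log2 units in the authors' deposited table (adjusted p = 0.0034), from a derived 0.938 CPM in the denominator group to 9.72 CPM. The other partner chain, Il2rg, had -0.73 in the authors' deposited table and did not pass (adjusted p = 0.066), and Stat6, the STAT of this receptor, had 0.16 (adjusted p = 0.828). The other genes that passed can be induced by IL-4 in macrophages or dendritic cells, which does not make them specific to those cells. Mrc1, the mannose receptor, was higher by 5.25, Chi3l3, a chitinase-like protein, by 2.12 and the lectin gene Clec10a by 1.63 in the authors' deposited table. Chi3l3 has near-identical copies, so its reads may be split. The median of the list was 0.16.

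Among checkpoint ligands and their partners 4 of 16 listed genes (25%, beside 18.8% of all genes) were higher and none lower, and 1 of the 4, Cd86, stayed above 0 at equal totals. Pdcd1lg2, which encodes PD-L2, is not listed. Cd86, a costimulatory ligand of CD28 and CTLA-4, was higher by 4.45 in the authors' deposited table (adjusted p = 1.0e-10), from a derived 2.76 to 60.5 CPM. The gene of the checkpoint protein VISTA, listed under its older name 4632428N05Rik, was higher by 1.27, Lgals9, which encodes galectin-9, by 1.06 and the interferon gamma receptor gene Ifngr1 by 0.92 in the authors' deposited table. The list had a median of 0.45.

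Prostaglandin genes were higher for 9 of 17 listed names (52.9%, beside 18.8% of all genes) and lower for none, and 6 of the 9 stayed above 0 at equal totals, although Ptgs2 and the inducible synthase gene Ptges are not listed. Ptgs1, the constitutive cyclooxygenase, had derived levels of 22.6 CPM in the denominator group, 90.2 CPM in the first numerator group and 20.6 CPM in the second. Its log2 fold change in the first comparison was 1.99 in the authors' deposited table (adjusted p = 1.5e-10). Tbxas1, which makes thromboxane and is a platelet and macrophage enzyme, was higher by 2.51 and Hpgds, a synthase of prostaglandin D, by 4.89 in the authors' deposited table. Hpgd, which inactivates prostaglandins, was higher by 5.25 there, from a derived 3.62 to 137 CPM. The median of the list was 0.80.

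In the Siglec family and its adaptors 7 of 13 listed genes (53.8%, beside 18.8% of all genes) were higher and 2 lower, and 3 of the 7 stayed above 0 at equal totals. Siglec1, the sialoadhesin of resident macrophages, was higher by 5.56, the adaptor gene Tyrobp by 2.50, the kinase gene Syk by 1.08 and the phosphatase gene Ptpn6 by 1.01 in the authors' deposited table. The lower genes were Siglecg, a B cell Siglec, at -1.30, and the eosinophil receptor gene Siglecf, listed as Siglec5, at -1.60 in the authors' deposited table. The list had a median of 1.01, and Cd33 at 0.82 lay below it.

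Other genes named as marks of suppressor cells, oxidase subunits, S100 proteins and surface receptors among them, were higher for 14 of 21 listed names (66.7%, beside 18.8% of all genes) and lower for none, and 12 of the 14 stayed above 0 at equal totals. The share of genes called higher depended on the denominator level. It was 174 of 1945 genes at 3 to 4 log2 CPM and 66.2% at 6 to 7. None of the 9 pathway lists was matched for level, so 18.8% is not a matched background for them. The lists also share genes, so their shares are not separate observations. Ptpn6 and Ptpn11 count in both the STAT3 and the Siglec list. Mrc1 is also among the macrophage markers below, and the S100 genes are among the neutrophil markers. Hmox1, heme oxygenase, was higher by 4.33, the protease gene Ctsd by 2.90, Lgals3, which encodes galectin-3, by 2.62 and the oxidase subunit gene Cyba by 2.28 in the authors' deposited table. The tryptophan-degrading enzyme gene Ido1 is not listed. In the second comparison none of the 9 pathway lists held a called gene, and the authors' deposited table gives unadjusted p-values under 0.05 only for Hmox1, at -1.82 with an adjusted p of 0.165, and Thbs1, at -2.94 with an adjusted p of 0.704.

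**Figure D4:**
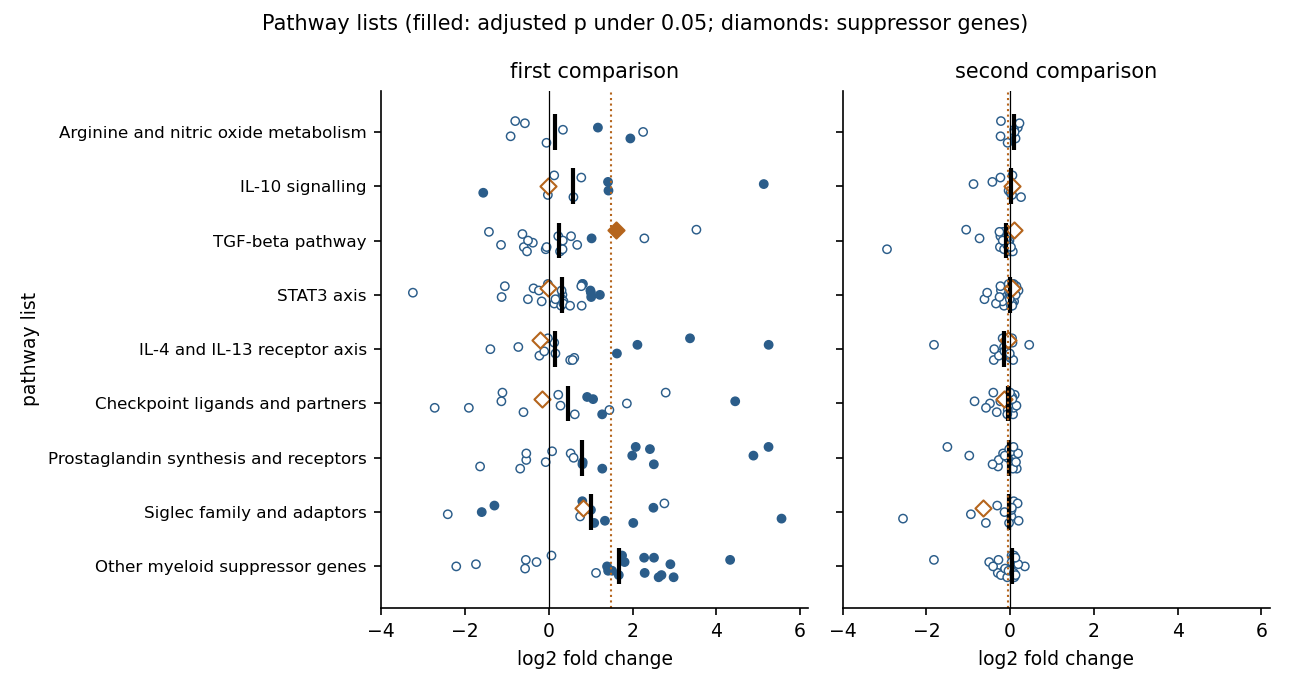
Deposited log2 fold change (horizontal axis) of each listed gene in the 9 pathway lists (rows) in the first comparison (left) and the second (right), filled where the adjusted p is under 0.05, with list medians as black bars, suppressor genes as diamonds and equal totals as a dotted line. Filled points reach from -1.60 to 5.56 on the left and none is filled on the right, while the diamonds other than Tgfb1 are open on both sides.

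Markers of other cell types were read in the same comparison, where 18.8% of all genes were called higher and 3.49% lower. All 17 resident macrophage markers were higher in the first numerator group, and their summed derived level was 5420 CPM there, 199 CPM in the denominator group and 87.4 CPM in the second numerator group. In the second comparison 2 of the 17 were lower, the complement gene C1qa at -2.41 (adjusted p = 0.020) and the ficolin gene Fcna at -2.51 (adjusted p = 0.037) by the authors' deposited table. All 9 megakaryocyte and platelet markers were higher in the first comparison as well, at a summed 1694 CPM against 209 and 149 CPM. Of 13 listed neutrophil markers 10 were higher, at 4400 against 867 and 918 CPM, whereas of 9 monocyte markers 3 were higher and 3 lower, at 2808 against 1650 and 1689 CPM. At equal totals the higher macrophage, megakaryocyte and neutrophil markers all stayed above 0, and 2 of the 3 higher monocyte markers did. Of 8 listed B cell markers 6 were lower, and of 5 listed T and NK cell markers 2 were higher and 3 lower, with Cd3d, Cd3e, Cd3g and Cd8a not listed. For eosinophils and mast cells 3 of 9 were higher and 2 lower, and for endothelial cells 2 of 8 were higher. Macrophages and platelets are known sources of TGF-beta 1, of Ptgs1 and of Tbxas1. The part of these cells in the values of Tgfb1 and of the pathway genes was not tested, and in bulk RNA more cells of a type and more RNA per cell cannot be told apart.

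Kit, Ly6a and Kdr, the genes of the sort, passed in neither comparison. In the authors' deposited table the first and second log2 fold changes were -0.60 (adjusted p = 0.128) and 0.04 (1) for Kit, and 0.43 (adjusted p = 0.402) and -0.02 (1) for Ly6a, which encodes Sca-1. Kdr had 1.26 (adjusted p = 0.617) and -1.11 (1) by the authors' deposited table, at derived levels from 0.378 to 2.24 CPM. Of 2 further genes that mark subsets within such progenitors, Fcgr3, an Fc receptor gene, was higher by 2.08 in the first comparison (adjusted p = 1.6e-09) and Cd34 had -0.69 (adjusted p = 0.110), both from the authors' deposited table.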

How the data were processed

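Per the labels' protocols, sequencing libraries were built with a TruSeq RNA kit from total RNA of the sorted cells. Bowtie 0.12.2 and the build mm8 stand in the submitters' processing notes, with no role given. Reads were counted and genes tested by programs not given in the sources used here. Both the log2 fold changes and the log2 mean CPM values were deposited by the authors. Their base is inferred from the fitted match of the denominator levels. P-values stand in the authors' table beside adjusted values, which equal a Benjamini-Hochberg adjustment recomputed here to within 5.2e-14. Whether CPM values were scaled to gene length is not given, so levels of different genes may not be comparable. This limit applies to the level bands, the genes of near mean and the sums over genes.

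Tests planned for values per library could not be run, and the authors' p-values are used. Group levels were derived from the mean CPM as a weighted mean of the groups. Numerator weights of 0.48 and 0.59 gave the smallest median absolute difference between the denominator levels on a grid, over genes above 3 log2 CPM. The fit was tested on simulated data built with a shared denominator, which cannot test whether the denominators are the same group. Equal totals means subtracting the log2 ratio of summed derived levels. Level bands are 1 log2 CPM wide. "Stayed above 0 at equal totals" recentres called genes without a new test.

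Members and lists were chosen with earlier results of these data known. Named are the members, Kit, Ly6a, Kdr and, in each of 9 pathway lists, the 4 other genes with the smallest p in the first comparison and any gene called in the second, with 1 gene that the rule names not reported here. Other genes named, among them Jak1, Jak2, Tyk2, Socs3, Il2rg, Stat6, Tgfbr1, Siglecg, Siglecf, Thbs1, C1qa, Fcna, Fcgr3, Cd34 and unlisted ones, were chosen after their values were seen. RefSeq symbols and synonyms of GRCm38 match 99.2% of the table's names. Its coordinates are not used, since the build differs. Alternatives were other thresholds, a filter at 1 log2 CPM, a fold filter, recentring and equal weights. Python 3.11.15, numpy 2.4.6 and pandas 2.3.3 were used.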

Additional observations from a re-analysis of the deposited data

How the results depend on the processing

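Tgfb1 was the 1 member called in the first comparison, and 0 were called in the second, at thresholds of 0.01 and 0.1, with the adjustment over genes of at least 1 log2 CPM, and with an added fold filter of 1 log2. At an adjusted p under 0.01 the STAT3 axis held 3 called genes in place of 6 and the Siglec list 5 in place of 9, and the other 7 lists stayed within 1.5 times. Of all genes called in the first comparison 84.3% were higher as deposited, 49.0% at equal totals and 64.4% at equal totals without the genes of the highest levels, both counts being added after seeing the data. Tgfb1 stayed above 0, at 0.11 at equal totals and 1.73 against the median of all genes, and, in recentrings chosen after seeing the data, at 0.45 without the genes of the highest levels and 0.59 against its level band. The level-band values of the other members also come from a recentring chosen after seeing the data. Weights of 0.5 changed derived member levels by factors of 0.960 to 1.01. No paired analysis was possible because the table holds no value per library, and for the same reason no replicate could be left out, no other count test or low-count filter run and no depth given.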
